A study of Arabidopsis thaliana with 4 samples.

Results

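Glutamate can leave the amino acid pool along either of a pair of short routes, and the 10 Arabidopsis thaliana genes described here code for the enzymes of both. They were picked by locus identifier, a rule that uses no measured value, although earlier results of these data were known when the set was drawn up: the glutamate decarboxylase genes GAD1 to GAD5, the GABA transaminase gene POP2, the succinic semialdehyde dehydrogenase gene ALDH5F1 and the glutamate dehydrogenase genes GDH1 to GDH3. All 10 were among the 33602 genes of the deposited table. The table holds whole 14-day-old seedlings of the Columbia accession raised without nitrogen. They were taken either 0.5 h after transfer to the nitrogen-free medium supplemented with 2.5 mM glutamine (0.5 h, 2 libraries) or before transfer (0 h, 2 libraries). The study asked which transcripts respond early to glutamine. Every sample had grown without nitrogen, and seedlings moved to fresh medium without glutamine were not among the samples, so glutamine, transfer and the passage of time cannot be told apart. Nothing in the labels says that the samples came from separate cultures, so p-values measure only the spread between these libraries, which may be technical.

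In the GABA shunt, cytosolic glutamate decarboxylase turns glutamate into 4-aminobutyrate (GABA) and carbon dioxide. Calcium-loaded calmodulin activates the enzyme through its C-terminal end. In mitochondria, GABA transaminase passes the amino group of GABA to pyruvate or glyoxylate, and succinic semialdehyde dehydrogenase oxidizes what remains to succinate, which enters the tricarboxylic acid (TCA) cycle past the step of 2-oxoglutarate dehydrogenase. Glutamate dehydrogenase, also mitochondrial, removes the amino group of glutamate directly and returns 2-oxoglutarate and ammonium. Its transcripts are known to be high when plants are short of sugar or kept in the dark.

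The libraries held 26075046 and 20429739 reads in genes at 0.5 h and 26069135 and 27203588 at 0 h, as recovered from the steps of the deposited values. The chloroplast share of reads was 0.0848 and 0.379% at 0.5 h and 0.0974 and 0.0569% at 0 h, so replicate 2 at 0.5 h stood apart in this measure. Levels are RPKM, that is, reads per kilobase of gene and per unit of library size, to which the authors applied TMM, a trimmed-mean scaling between libraries. Differences are log2 fold changes of RPKM + 1, 0.5 h over 0 h, with the standard error (SE) of limma, a linear model that draws each gene's spread toward that of genes of like level. A gene was called at a Benjamini-Hochberg adjusted p below 0.05 over the 18039 genes whose mean reached 1 RPKM.

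At 0.5 h the minor decarboxylase gene GAD4 was the only member called, and it was higher. The major genes of the shunt and of glutamate dehydrogenase, GAD1, GAD2, POP2, ALDH5F1, GDH1 and GDH2, were not called in either direction. Of the 10 members 7 passed the minimum of 1 RPKM, and GAD3, GAD5 and GDH3 did not. Of the 7 tested, 1 was called higher and 0 were called lower by limma, against 6.71% and 5.11% of all genes tested and 11.8% in either direction. With 7 genes, neither count stands far from the background share. At an unadjusted p below 0.05 limma placed 2 members, POP2 and GDH1, lower, against 14.7% of all genes tested, and limma-voom on the recovered reads called 0 members lower after adjustment. The median difference of the 7 was -0.17 on the log2 scale, against -0.03 over all genes tested. The groups did not overlap, with the 0.5 h libraries lower, for GAD2, POP2 and GDH1, and this held for 32.6% of all genes tested. With the 0.5 h libraries higher, they did not overlap for GAD4, as for 27.1% of all genes tested, so 4 of 7 members had groups apart, against 59.7%. In bulk seedlings, fewer cells of a type and less RNA per cell cannot be told apart.

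**Figure D1:**
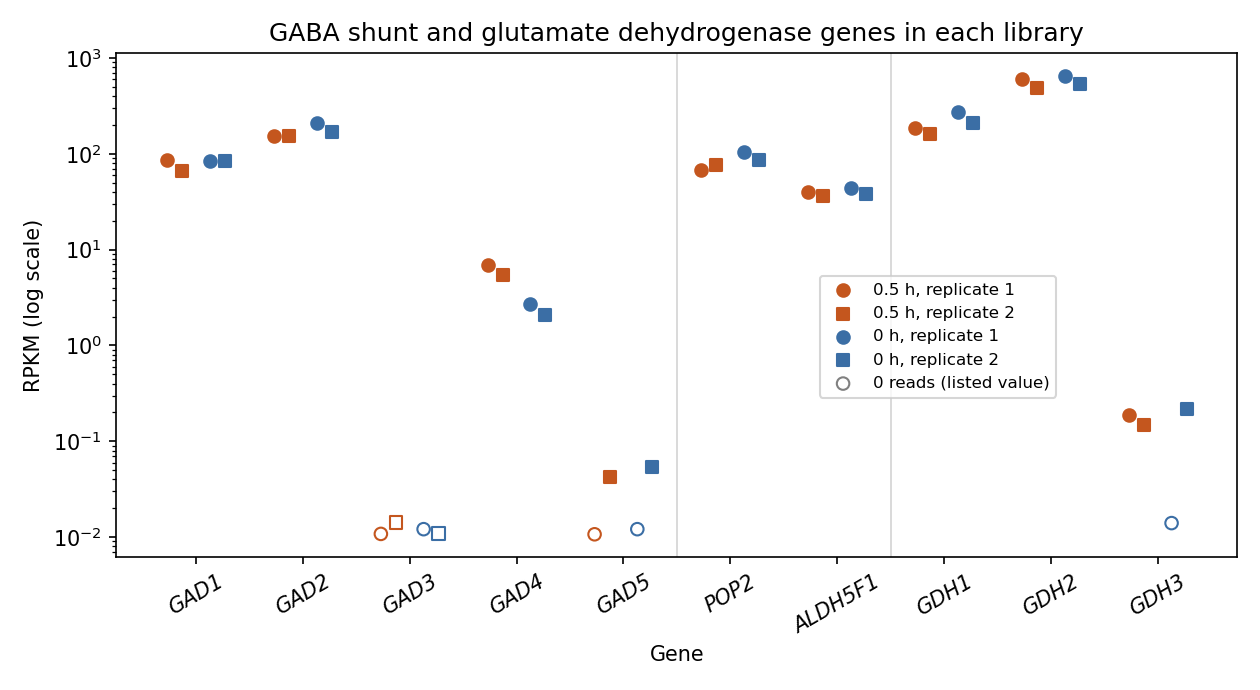
RPKM (log axis) of the 10 genes in each of the 4 libraries, with 0.5 h in orange left of 0 h in blue, circles for replicate 1 and squares for replicate 2. Open symbols mark 0 reads, where the listed value comes from a constant of 0.5 read. GDH2 is the most abundant of the 10, GAD4 sits between the abundant and the near-absent genes and is the one whose orange points lie clearly above the blue, and GAD3, GAD5 and GDH3 stay below 0.3 RPKM.

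By level per gene length GDH2 stood highest of the 10 genes, ranking 167 of 33602 genes by mean RPKM, followed by GDH1 at rank 677 and GAD2 at rank 823. GDH1 at 0.5 h, with 186 and 159 RPKM, lay just above GAD2, with 152 and 155 RPKM. At 0 h GDH1 had 271 and 212 RPKM and GAD2 had 210.3 and 168 RPKM, so GDH1 was above GAD2 in each library. The lower GDH1 value lay only just above the higher GAD2 value, and replicates differed by 59.7 RPKM for GDH1 and 42.5 RPKM for GAD2. POP2 and GAD1 came next, at ranks 1790 and 1874, and their values overlapped at 0.5 h. ALDH5F1 followed at rank 3669, below both in every library. GAD4 ranked 14038, and the remaining 3 genes ranked between 22675 and 31284.

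GAD4 (AT2G02010) rose. It had 6.88 and 5.43 RPKM at 0.5 h, against 2.72 and 2.09 RPKM at 0 h. Both 0.5 h libraries lay above both 0 h libraries, and the difference was larger than the spread between replicates. The means were 6.15 ± 1.03 RPKM at 0.5 h and 2.41 ± 0.446 RPKM at 0 h (SD, n = 2 each), a ratio of 2.55. The fitted difference was 1.07 ± 0.18 (SE; limma adjusted p = 0.0146), with a 95% interval of 0.65 to 1.49. The pseudocount compresses this low gene, and limma-voom on recovered reads gave 1.38 ± 0.24 (adjusted p = 0.00815). Behind these values stood 334 and 200 reads at 0.5 h and 117 and 100 reads at 0 h. The exact 95% Poisson intervals of the reads correspond to 6.15 to 7.64 and 4.69 to 6.22 RPKM at 0.5 h and to 2.24 to 3.25 and 1.69 to 2.53 RPKM at 0 h, and cover counting error only.

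The call of GAD4 ended when replicate 2 at 0 h was left out (difference 0.93, adjusted p = 0.0689) and when no minimum was set on the mean RPKM (adjusted p = 0.159). Under that last setting limma called 0 genes of the whole table higher, with 2682 at an unadjusted p below 0.05. The annotation places a long non-coding RNA, AT2G04155, on the opposite strand, overlapping GAD4. It is not listed in the table. Whether reads were counted by strand is not stated in the labels, so for GAD4 and the other overlapping genes below reads of either strand cannot be told apart. GAD4 and GAD3 stand next to each other on the same strand, with 0 annotated genes between them. Their levels differed: GAD3 (AT2G02000), another decarboxylase gene, held 0 reads in all 4 libraries. A count of 0 allows up to 3 reads, or 0.0645 and 0.0850 RPKM at 0.5 h and 0.0728 and 0.0654 RPKM at 0 h. The table lists a highest share of multi-mapped reads of 0.0251 for GAD4 and 0.0164 for GAD3, which held no reads, and the labels do not say how that share was formed.

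GAD2 (AT1G65960), the decarboxylase gene active throughout the plant, carried most of the family's transcripts. It had 152 and 155 RPKM at 0.5 h and 210.3 and 168 RPKM at 0 h. Both 0.5 h libraries were below both 0 h libraries, but replicate 2 at 0 h lay close to them. The fitted difference was -0.29 ± 0.16 (limma adjusted p = 0.293), with a 95% interval of -0.68 to 0.10, so it did not exceed the spread between replicates. It was -0.13 without replicate 1 at 0 h and -0.45 without replicate 2 at 0 h, and was not called in either case. Its highest share of multi-mapped reads was 0.596. On the opposite strand it overlaps AT1G65970 (TPX2, a thioredoxin-dependent peroxidase), with a share of 0.833. TPX2 had 182 and 137 RPKM at 0.5 h and 335 and 206 RPKM at 0 h, lower at 0.5 h as well. With the reads of the pair added together, an alternative chosen after the data were seen, the difference was -0.42 ± 0.19 (limma adjusted p = 0.193). The summed reads, 12333.75 and 8810.46 at 0.5 h and 16617.25 and 13548.83 at 0 h, were not whole numbers, so this pair does not account for all of the divided reads. The microRNA gene MIR5014a, on the strand of GAD2, and the long non-coding RNA AT1G08797, on the opposite strand, also overlap GAD2. Neither is listed in the table.

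GAD1 (AT5G17330), known as the root decarboxylase of Arabidopsis, had 85.7 and 65.5 RPKM at 0.5 h and 84.9 and 83.9 RPKM at 0 h. The groups overlapped, and the spread came from replicate 2 at 0.5 h. The fitted difference was -0.17 ± 0.17 (limma adjusted p = 0.544; 95% interval -0.57 to 0.23), and without that library it was 0.02. None of 10 root markers was at 0 reads in every library, and their summed level was 266 and 249 RPKM at 0.5 h and 246 and 386 RPKM at 0 h. Of 6 root markers tested, 1, the transcription factor gene SHR (0.78 ± 0.14), was called higher and 0 lower by limma, and 1 and 0 by limma-voom. At an unadjusted p below 0.05, 2 were higher and 1 lower, against 13.9% and 14.7% of all genes tested. The call of SHR ended without replicate 2 at 0.5 h and without either replicate at 0 h. The root markers with the highest means were PYK10, with 165 and 166 RPKM at 0.5 h and 158 and 273 RPKM at 0 h, and NAI2, with 44.4 and 39.8 RPKM at 0.5 h and 41.8 and 50.6 RPKM at 0 h. NAI2, like GAD1, was lowest in replicate 2 at 0.5 h, whereas PYK10 was lowest in replicate 1 at 0 h. The part of root content in the GAD1 values was not tested. Of 8 shoot markers tested, 3 were called lower and 0 higher, against 5.11% and 6.71% of all genes, and 3 and 0 by limma-voom. At an unadjusted p below 0.05, 3 were lower and 1 higher, against 14.7% and 13.9% of all genes tested. The 3 were the photosystem I antenna genes LHCA1 (-0.87 ± 0.19), LHCA3 (-1.29 ± 0.16) and LHCA4 (-1.48 ± 0.16), and the calls of LHCA1 and LHCA3 ended without replicate 2 at 0.5 h, that of LHCA1 also without replicate 1 at either time. The most abundant were CAB1, with 13555 and 12922 RPKM at 0.5 h and 15739 and 15997 RPKM at 0 h, and RBCS1A, with 7605 and 8092 RPKM at 0.5 h and 7681 and 7963 RPKM at 0 h. All 8 shoot markers summed to 27745 and 28171 RPKM at 0.5 h and 33447 and 33888 RPKM at 0 h.

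GAD5 (AT3G17760) was at the detection limit, with 0 and 1 read at 0.5 h and 0 and 2 reads at 0 h, and its share of multi-mapped reads was 1. It overlaps AT3G17750 and AT3G17765 on the opposite strand. No difference between the times was detectable at this depth for GAD3 or GAD5.

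Within the GAD family, GAD4 made up 2.81 and 2.40% of the summed RPKM at 0.5 h, against 0.914 and 0.824% at 0 h. GAD2 held 62.1 and 68.6% at 0.5 h and 70.6 and 66.1% at 0 h, and GAD1 held 35.0 and 29.0% at 0.5 h and 28.5 and 33.1% at 0 h. The balance of GAD1 and GAD2 thus varied as much between replicates as between times. The family summed to 244 and 226 RPKM at 0.5 h, against 298 and 254 RPKM at 0 h. The rise of GAD4, by 3.74 RPKM between the means, was small beside this sum. Shares of GAD2, and of the others through it, carry its multi-mapped reads.

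**Figure D2:**
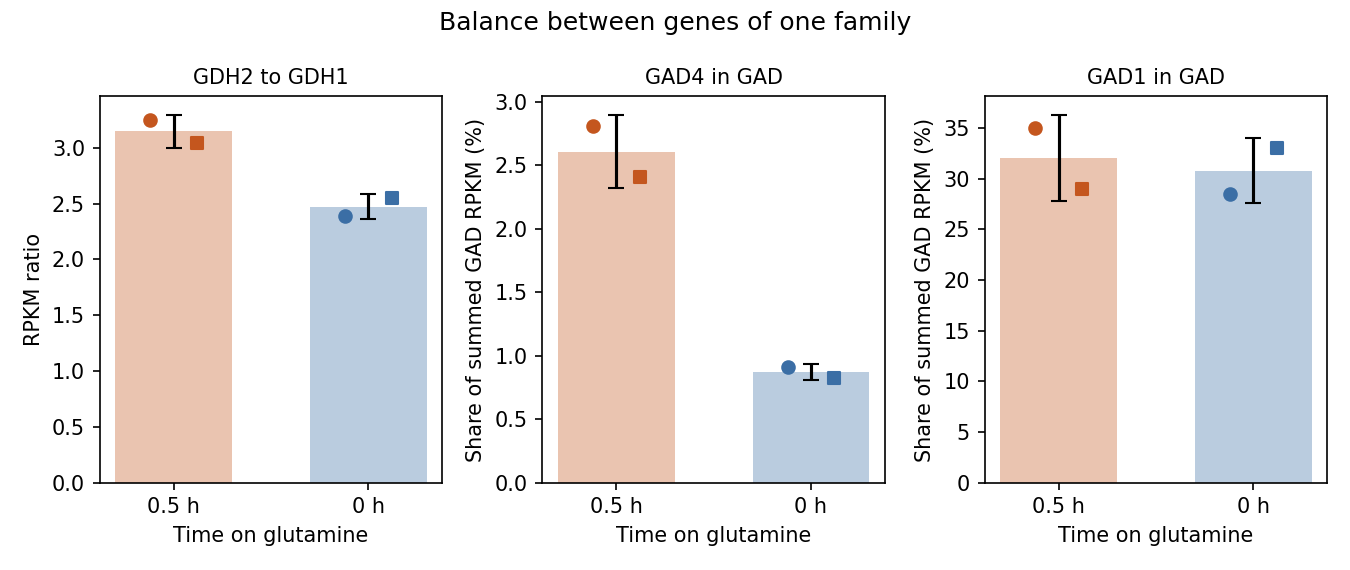
Ratio of GDH2 to GDH1 RPKM, and shares of GAD4 and GAD1 in the summed GAD RPKM (%), at 0.5 h (orange, left) and 0 h (blue, right). Bars are means, error bars SD (n = 2), and points the libraries. The ratio (3.25 and 3.04 against 2.39 and 2.55) and the GAD4 share (2.81 and 2.40 against 0.914 and 0.824%) do not overlap between times, whereas the GAD1 share does. Of all single genes tested, 59.7% had groups apart.

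POP2 (AT3G22200), the gene for the mitochondrial GABA transaminase, had 67.4 and 77.0 RPKM at 0.5 h and 104 and 85.7 RPKM at 0 h. The 0.5 h libraries were below the 0 h libraries, with 8.69 RPKM between the nearest of them. The fitted difference was -0.39 ± 0.16, with a 95% interval of -0.77 to -0.005, and did not pass after adjustment (limma adjusted p = 0.170). It ran from -0.53 without replicate 2 at 0 h to -0.25 without replicate 1 at 0 h. POP2 overlaps AT3G22210, an uncharacterized gene on the opposite strand, and the highest shares of multi-mapped reads were 0.267 and 0.556. The reads of either gene were not whole numbers, but their sums were, within 0.05 read, at 6499 and 5158 reads at 0.5 h and 8403 and 7125 reads at 0 h. AT3G22210 had 169 and 154 RPKM at 0.5 h and 225 and 150.2 RPKM at 0 h, and these overlapped. With the reads of the pair added together the difference was -0.31 ± 0.17 (limma adjusted p = 0.282). A long non-coding RNA on the strand of POP2, AT3G04255, also overlaps POP2 and is not listed in the table.

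ALDH5F1 (AT1G79440) codes for succinic semialdehyde dehydrogenase, the last enzyme of the shunt, whose loss in Arabidopsis gives stunted, necrotic plants. It had 39.9 and 36.5 RPKM at 0.5 h and 44.0 and 38.1 RPKM at 0 h. The groups overlapped. The fitted difference was -0.10 ± 0.14 (limma adjusted p = 0.685), and its 95% interval, -0.44 to 0.24, corresponds to folds of 0.737 to 1.18. No reads of this gene were listed as multi-mapped. The ratio of POP2 to ALDH5F1 RPKM was 1.69 and 2.11 at 0.5 h, against 2.37 and 2.25 at 0 h, so the transaminase transcript was the more abundant of the pair in each library. This ratio did not overlap between the times, and it was not tested.

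GDH2 (AT5G07440) and GDH1 (AT5G18170) code for the alpha and beta subunits that assemble into the hexamers of glutamate dehydrogenase. GDH2 had 604 and 486 RPKM at 0.5 h and 649 and 540 RPKM at 0 h. Its groups overlapped widely, and the fitted difference was -0.13 ± 0.19 (limma adjusted p = 0.696; 95% interval -0.58 to 0.32). GDH1 had 186 and 159 RPKM at 0.5 h and 271 and 212 RPKM at 0 h. Both 0.5 h libraries lay below both 0 h libraries. The fitted difference of GDH1 was -0.47 ± 0.18, with a 95% interval of -0.90 to -0.04, and did not pass after adjustment (limma adjusted p = 0.142). Over 15 alternatives its difference ran from -0.65 to -0.30 and its adjusted p from 0.103 to 0.440. GDH1 has an overlapping neighbour on the opposite strand, AT5G18180, and its multi-mapped share reached 0.0052.

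A ratio of genes within a library is free of the scaling between libraries, and the ratio of the GDH genes did not overlap between the times. Single genes had groups apart in 59.7% of all genes tested, and no such share was taken for ratios. Of the other ratios formed, that of POP2 to ALDH5F1 was also apart. Those of GAD1 to GAD2, GAD2 to POP2 and GDH2 to ALDH5F1 overlapped. GDH2 exceeded GDH1 by a factor of 3.25 and 3.04 at 0.5 h, against 2.39 and 2.55 at 0 h. The means were 3.15 ± 0.147 and 2.47 ± 0.112 (SD, n = 2 each). GDH2 accounted for 76.5 and 75.3% of the summed GDH RPKM at 0.5 h and for 70.5 and 71.8% at 0 h. With 2 libraries a time, the smallest two-sided p that an exact permutation test can give is 0.333, and no other test of the ratio was run, so these values are a description. An unequal change in the pair does not show which gene changed.

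GDH3 (AT3G03910), whose product is a further alpha-type subunit, was close to absent. It held 7.12 and 4.05 reads at 0.5 h and 0 and 8.09 reads at 0 h, which corresponds to listed levels of 0.190 and 0.149 RPKM at 0.5 h and 0.0140 and 0.217 RPKM at 0 h. The replicates at 0 h enclose both values at 0.5 h, and the gene was below the minimum for the test. It overlaps AT3G03920 on the opposite strand.

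**Figure D3:**
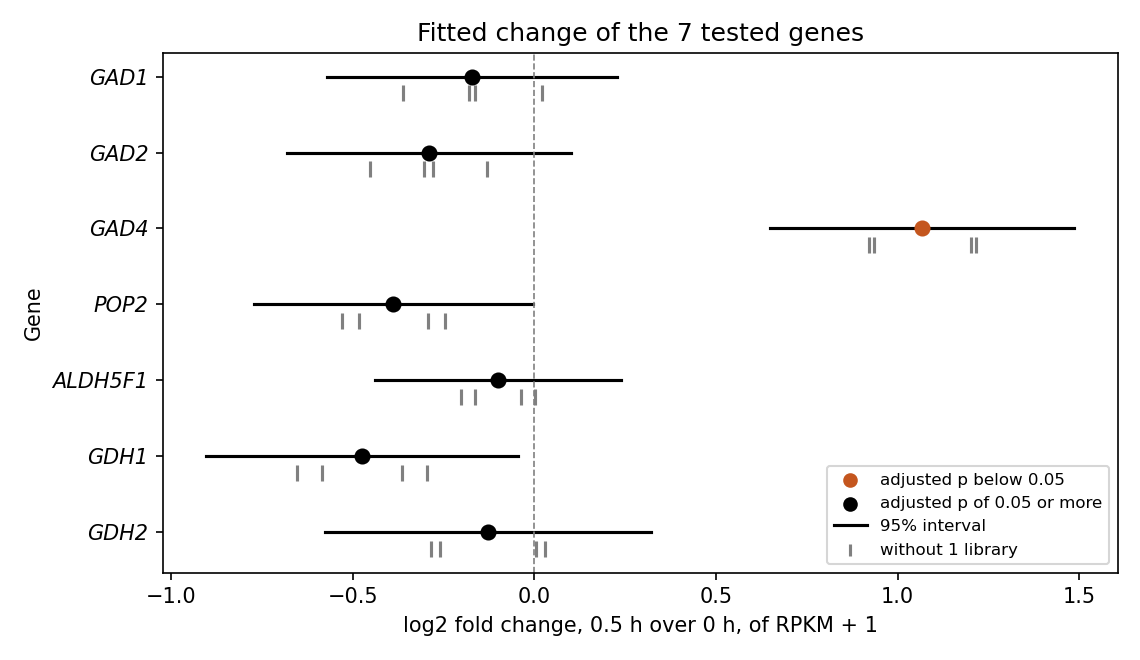
Fitted log2 fold change of RPKM + 1 (0.5 h over 0 h) of the 7 tested genes, with 95% intervals from limma and, as grey ticks, the value with each library left out. GAD4 lies at 1.07 with an interval above 0, the intervals of POP2 and GDH1 end just below 0, and those of GAD1, GAD2, ALDH5F1 and GDH2 include 0.

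Within a time, replicate 1 was above replicate 2 for most tested members. Each time had 2 libraries, so the genes are not repeated observations, and these counts were not tested. The gap of GAD1 at 0 h was only 1.00 RPKM. At 0 h replicate 1 was above replicate 2 for 7 of the 7 tested members, against 57.1% of all genes tested, and at 0.5 h for 5 of 7, against 46.7%. For GDH2, the difference between replicates (119 RPKM at 0.5 h and 109 RPKM at 0 h) was larger than that between the means of the times.

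The steps around the shunt were described from 52 further genes in 7 lists, of which 46 were tested. Of these 4 were called higher and 1 lower, against 6.71% and 5.11% of all genes tested, so the counts over the 46 lie near the background. Of the 5 called genes 4 belong to the polyamine route, by which putrescine and its relatives are oxidized to aminobutanal and on to GABA without any glutamate decarboxylase. The median difference over the 46 was 0.04.

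In the polyamine list 3 of 13 tested genes were called higher and 1 lower (median -0.14), against 6.71% and 5.11% of all genes, and no test compared the list with other genes. ADC1 (AT2G16500), an arginine decarboxylase at the start of putrescine synthesis, rose to 54.1 and 64.7 RPKM at 0.5 h, against 27.6 and 29.1 RPKM at 0 h (1.03 ± 0.15, limma adjusted p = 0.00947). The other arginine decarboxylase gene, ADC2 (AT4G34710), had 75.8 and 72.5 RPKM at 0.5 h, against 43.8 and 23.2 RPKM at 0 h (1.19 ± 0.27, limma adjusted p = 0.0371). The 0 h replicates of ADC2 lay far apart, and its call ended without replicate 1 at 0.5 h, without replicate 2 at 0.5 h and without replicate 2 at 0 h (adjusted p = 0.0758, 0.108 and 0.0640). PAO4 (AT1G65840), a peroxisomal polyamine oxidase, rose to 22.2 and 20.7 RPKM at 0.5 h, against 10.7 and 12.2 RPKM at 0 h (0.85 ± 0.13, limma adjusted p = 0.0129), and its call ended without replicate 1 at 0 h (adjusted p = 0.0726). PAO4 overlaps AT1G65845 on the opposite strand. The copper amine oxidase gene AT4G12290 fell to 31.6 and 27.7 RPKM at 0.5 h, against 58.0 and 68.8 RPKM at 0 h (-1.07 ± 0.15, limma adjusted p = 0.00947). The 2 times were fully apart in each of these 4 genes, a separation that 59.7% of all genes tested had. Of the 3 that rose, ADC1 and ADC2 stand on the way to putrescine and PAO4 acts on longer polyamines. The gene that fell is of the family that oxidizes putrescine. The other tested polyamine oxidase genes lay between -0.20 and 0.23, and none of them was called. The other tested copper amine oxidase genes lay between -0.31 and -0.06 and were not called either. PAO4 and AT4G12290 thus do not stand for their families. ALDH10A8, an aminoaldehyde dehydrogenase that can complete this route and the gene with the highest mean of the list, had 52.1 and 50.7 RPKM at 0.5 h and 52.1 and 61.4 RPKM at 0 h (-0.14 ± 0.14) and was not called.

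Among the 7 calmodulin genes, whose products activate glutamate decarboxylase, 1 was called higher and 0 lower, which is near the background share. At an unadjusted p below 0.05 there were 2 higher and 0 lower, against 13.9% and 14.7% of all genes tested. By limma-voom 1 was called higher and 0 lower. CAM2 (AT2G41110) rose to 362 and 375 RPKM at 0.5 h, against 164 and 144 RPKM at 0 h (1.26 ± 0.15, limma adjusted p = 0.00648). It overlaps AT2G41120 on the opposite strand and its multi-mapped share reached 0.133. CAM1, with the highest mean of the list, had 413 and 428 RPKM at 0.5 h and 473 and 356 RPKM at 0 h and was not called (0.03 ± 0.19). The list median was 0.23.

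The other 5 lists had 0 called genes in either direction by limma and by limma-voom. Their unadjusted counts stand beside 13.9% of all genes tested higher and 14.7% lower at an unadjusted p below 0.05. For the 13 tested genes of the TCA cycle between 2-oxoglutarate and fumarate, where the shunt rejoins it, 0 were higher and 1 lower at an unadjusted p below 0.05 (median 0.06). Their most abundant gene, SDH3-1 of succinate dehydrogenase, had 78.4 and 80.1 RPKM at 0.5 h and 94.4 and 93.1 RPKM at 0 h, and its multi-mapped share reached 0.971. Of 4 tested genes for GABA transport 1 was higher and 1 lower unadjusted (median 0.09), and the mitochondrial GABA permease gene BAT1 had 17.0 and 16.0 RPKM at 0.5 h and 21.3 and 23.2 RPKM at 0 h (-0.41 ± 0.13, limma adjusted p = 0.0923). Of the 4 alanine and glyoxylate aminotransferase genes 1 was higher and 3 lower unadjusted (median -0.39), and no test compared this list with other genes. GGT1, the photorespiratory glutamate:glyoxylate aminotransferase, had 376 and 388 RPKM at 0.5 h and 514 and 497 RPKM at 0 h (-0.40 ± 0.15, limma adjusted p = 0.134). Both reductases of succinic semialdehyde, with GLYR1 at 61.3 and 63.8 RPKM at 0.5 h and 64.9 and 65.8 RPKM at 0 h, and the 3 mitochondrial carriers, led by PUMP1 at 47.3 and 40.0 RPKM at 0.5 h and 41.8 and 34.5 RPKM at 0 h, had 0 genes past an unadjusted p of 0.05 in either direction (medians 0.07 and 0.08).

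**Figure D4:**
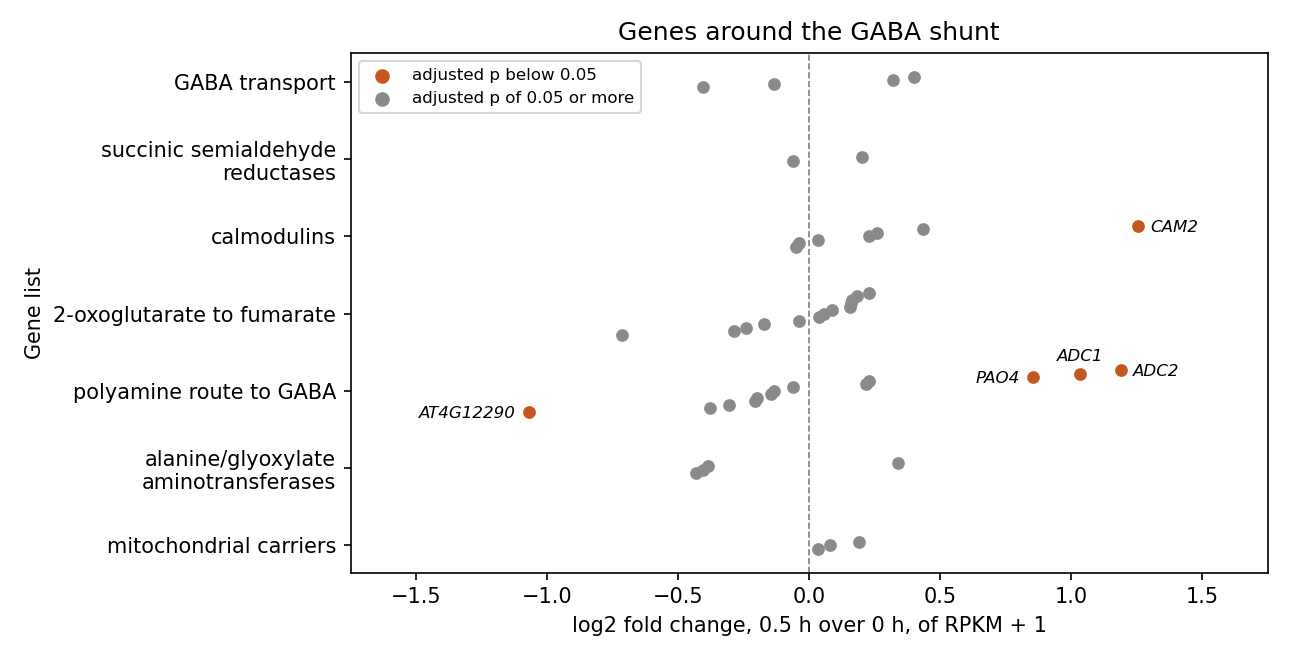
Fitted log2 fold change of RPKM + 1 (0.5 h over 0 h) of the 46 tested genes around the shunt, 1 row per list and 1 point per gene, with called genes in orange and named. ADC1, ADC2, PAO4 and CAM2 lie at 0.85 or above and AT4G12290 at -1.07, while the rest lie between -0.71 and 0.43.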

How the data were processed

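Groups and replicate numbers came from the sample titles. Per the labels' protocols, a TruSeq kit was used. The authors deposited RPKM values, TMM-scaled according to the table's name, and per gene a fraction, headed as the largest multi-mapped share. TAIR10 and SAMtools are named per the submitters' processing notes; aligner, counter and strand setting are not stated in the labels or the header. RPKM times gene length lay on steps with 0.5 read added per gene, and the reads recovered from them were whole, within 0.05 read, for 99.992 to 100.0% of genes without multi-mapped reads. Gene names and overlaps came from the TAIR10.1 annotation, whose build name differs from the deposited one, so no coordinates or sequences are printed.

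Genes whose mean reached 1 RPKM were fitted with limma 3.58.1 (R 4.3.3, intensity trend, group alone) on log2(RPKM + 1), which understates changes of low genes. P-values are two-sided with Benjamini-Hochberg adjustment over all genes tested. Residual degrees of freedom were 2 and prior ones 4.82. The fitting steps were run on simulated counts with a common spread setting for all genes, a simpler case than these data. That run gives no error rate for the results here. Members and lists were chosen with earlier results of these data known. All 10 members are named, of each pathway list the called genes and the most abundant one, and of the root and shoot markers the 2 with the highest means; SHR, LHCA1, LHCA3 and LHCA4 were named after their values were seen. Alternatives are given in the closing section. Replicates differed by more than sampling noise: the mean chi-square was 26.3 at 0.5 h and 21.3 at 0 h over genes with at least 20 reads. Python 3.11.15 and pandas 2.3.3 made the tables.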

Additional observations from a re-analysis of the deposited data

How the results depend on the processing

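Under a pseudocount of 0.1 or 5, quantile or median-of-ratios scaling, robust estimation, no intensity trend, leaving out genes with a multi-mapped share above 0.05, and limma-voom on recovered reads, GAD4 was called higher and no member was called lower. With no minimum on the mean RPKM, limma called 0 members and 0 genes of the pathway lists higher and 0 lower, and over all genes 0 higher and 2 lower, against 2682 and 2803 at an unadjusted p below 0.05. GAD4 fell under the minimum of 5 RPKM, which left 0 members called. Leaving out each library gave 0 to 1 members higher and 0 to 0 lower, 3 to 4 pathway genes higher and 1 to 2 lower, and over all genes 506 to 1158 higher and 233 to 824 lower, against 1211 and 922 with every library. The all-gene counts moved by over 1.5 times without replicate 2 at 0.5 h (506 and 271), replicate 1 at 0 h (545 and 233) and replicate 2 at 0 h (548 and 378), and the share of higher calls reached 70.1% without replicate 1 at 0 h, against 56.8%. With 1 library left in a group, that library is taken to vary like the other group. Signs reversed, far from any call, when a library was left out: GAD1 ranged from -0.36 to 0.0203, ALDH5F1 from -0.20 to 0.0021 and GDH2 from -0.29 to 0.0302. The positive ends came without replicate 2 at 0.5 h for GAD1 and GDH2 and without replicate 1 at 0 h for ALDH5F1, and GDH2 was also positive there (0.0052). Replicate numbers gave no sign of pairing (correlation of deviations -0.0778), which cannot settle whether the samples were paired. With the replicate block 1 member was called higher, 4 pathway genes higher and 1 lower. The cause of these shifts was not tested. Depth limits GAD3, GAD5 and GDH3, for which no difference can be shown.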
